A study of Mus musculus with 6 samples.

Results

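The mitochondrial genome genes are the rows of the gene table whose symbol starts with mt-. There were 35 of them among 49315 genes, 13 mRNA genes and 22 tRNA genes, and all lie on the circular mitochondrial chromosome (chrM), which is 16299 bases long. Annotation places 37 genes on that chromosome, and the 2 ribosomal RNA genes, mt-Rnr1 and mt-Rnr2, were not analysed here. Of the 35 genes, 20 reached 5 counts in 2 or more samples and were tested among 18234 genes in all. They were chosen by name, by a rule that uses no measured value, though earlier results of these data were known.

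The cells were bEND.3, an immortalised line of mouse brain endothelial cells. The 4 GapmeR samples were transfected, using Lipofectamine, with 100 nM of an antisense LNA GapmeR against the long non-coding RNA Gm39822, and the 2 Negative Control samples with 100 nM of a negative control GapmeR. A GapmeR is a short antisense oligonucleotide whose DNA core lets RNase H cut the matching RNA. The study compared these groups to ask which transcripts depend on Gm39822 in endothelial cells, and total RNA was sequenced after ribosomal RNA depletion, in paired reads of 150 bases.

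The mitochondrial genome is transcribed from both of its strands into long precursors that span many genes, and cutting at the tRNAs releases the mRNAs between them. Its mRNAs encode core subunits of respiratory complexes I, III and IV and of ATP synthase, and its tRNAs serve translation inside the organelle. Every enzyme that copies, transcribes and processes this genome is encoded in the nucleus. Nuclear chromosomes also carry old copies of mitochondrial sequence, and reads from such a stretch can be placed in either genome.

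Total counts ranged from 30264086 to 37117934 after knockdown, and the controls had 29261988 and 34266811. Gm39822, the targeted RNA, had 2, 1, 4 and 2 counts in GapmeR 1 to 4 and 61 and 56 counts in the controls, so the labels and the knockdown went together. Among replicates GapmeR 2 stood farthest from the others, with a chi-square per degree of freedom of 18.5 to 25.2 against the other GapmeR samples, compared with 5.41 to 10.7 for the remaining GapmeR pairs and 6.67 for the controls. The 12 endothelial markers summed to 9059 to 10376 CPM after knockdown and 10837 to 11283 CPM in the controls, where CPM is a count scaled to the TMM-adjusted library size. They went both ways, with 2 called higher, among them Erg (log2 fold change 1.12), and 6 lower, among them Emcn (-1.33). Summed levels of markers of other cells were low and did not overlap between the groups. Of all genes tested, 25.4% were called higher and 20.0% lower. The 10 macrophage markers summed to 134 to 186 CPM after knockdown and 106 to 108 CPM in the controls, with most of the sum on Cd68. Of the 10 tested, 2 were called higher, under the share of all genes. Yet all 10 had a log2 fold change above 0, with a median of 1.08. In all of them but Cd68 and Aif1, GapmeR 3 and 4 stood above GapmeR 1 and 2. Adgre1, for example, had 4.99, 3.83, 10.4 and 13.4 CPM in GapmeR 1 to 4 and 3.91 and 3.73 CPM in the controls. Mural cell markers summed to 10.7 to 15.5 against 2.51 to 2.70 CPM, with 3 of 8 tested called higher, and glial and neuronal markers to 32.8 to 56.9 against 71.2 to 73.1 CPM, with 7 of 10 called lower. Their part in the mitochondrial values was not tested. In bulk RNA, fewer cells of a type and less RNA per cell cannot be told apart, nor can fewer mitochondrial genomes and less RNA from each.

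One stretch of the mitochondrial chromosome has a nearly exact copy in the nucleus. In the GRCm39 assembly, chrM:6390-11042 aligned to chr1:24650616-24655269 on the minus strand over 4654 columns, with 99.936% identity, 2 mismatches and 1 gap. The ends of this block are printed because the read counts changed abruptly between genes inside and outside it. In the lines below, each sequence reads 5′ to 3′ along the mitochondrial plus strand, and capitals mark the bases inside the aligned block.
chrM:6360-6419, plus strand: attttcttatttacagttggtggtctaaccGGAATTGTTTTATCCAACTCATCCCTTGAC
chr1:24655240-24655299, minus strand: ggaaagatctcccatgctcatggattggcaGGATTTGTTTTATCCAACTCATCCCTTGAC
chrM:11013-11072, plus strand: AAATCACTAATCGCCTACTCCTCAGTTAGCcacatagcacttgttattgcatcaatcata
chr1:24650586-24650645, minus strand: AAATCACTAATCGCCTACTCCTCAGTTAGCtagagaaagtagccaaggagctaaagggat
Beyond the block the mitochondrial and nuclear sequences diverged, and within it they were almost letter for letter the same.

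Among mRNA genes the counts followed this block. The 11 genes that lie wholly inside it had at most 10 counts in any sample, whereas the 5 mRNA genes wholly outside it had between 2266 and 15977. Inside were 6 mRNA genes, mt-Co2, mt-Atp8, mt-Atp6, mt-Co3, mt-Nd3 and mt-Nd4l, with mean counts of 1.17 to 8.67 per sample. The 5 tRNA genes inside, mt-Ts1, mt-Td, mt-Tk, mt-Tg and mt-Tr, had no more than 1 count in any sample, but the 17 tRNA genes outside it ranged from 0 to 1094 counts and 6 of them were too low to test. The mt-Co1 gene has 31.3% of its bases in the block and mt-Nd4 has 63.6%, and both were well counted. How reads with several equally good placements were treated is not given in the sources used here, so the part of the copy in these low counts was not tested.

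**Figure D1:**
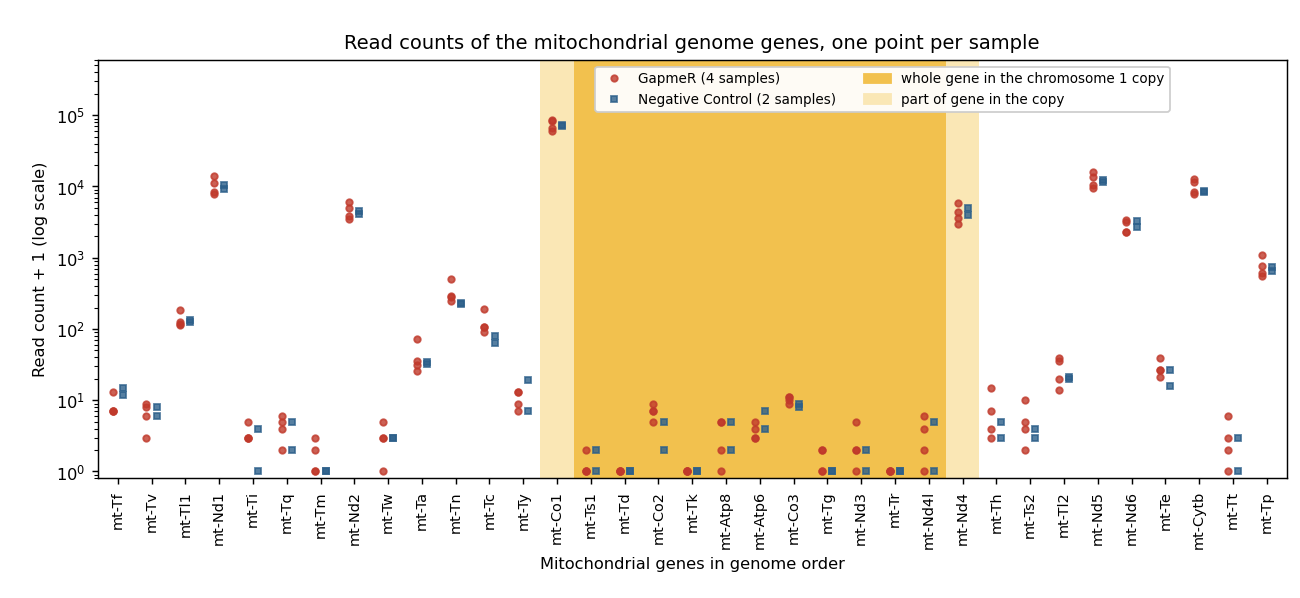
Read counts plus 1, on a log scale, of the 35 mitochondrial genome genes in genome order, with 1 point per sample (circles, 4 GapmeR; squares, 2 Negative Control). Dark shading marks the 11 genes wholly inside the chromosome 1 copy, which had at most 10 counts in any sample, and light shading the 2 genes partly inside it.

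The nuclear copy itself carries annotated pseudogenes, and they had few reads as well. The 7 in the table, Gm28439, Gm10222, Gm28438, Gm28437, Gm10925, Gm28661 and Gm29216, together had 138, 236, 113 and 168 counts in GapmeR 1 to 4 and 110 and 140 counts in the controls. The 11 mitochondrial genes inside the block together had 24, 29, 22 and 24 counts and 20 and 20 counts in the same order. Both sums were far below the 32221 to 54123 counts on the 22 members outside the block. None of the 7 pseudogenes was called. Among them Gm28438 had the most reads, 62 to 126 counts after knockdown and 60 and 78 in the controls, with a log2 fold change of 0.19 (SE 0.23, adjusted p = 0.535, edgeR).

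Levels of the mRNA genes are compared per length, as CPM per kilobase. In the controls mt-Co1, which encodes the catalytic subunit of cytochrome c oxidase (complex IV), stood at 1570 ± 109 CPM per kb (SD, n = 2). Next came mt-Nd1 at 344 ± 7.30, then mt-Cytb at 252 ± 22.6, mt-Nd5 at 223 ± 14.6 and mt-Nd6 at 194 ± 9.32. Then came mt-Nd2 at 140 ± 4.89 and mt-Nd4 at 108 ± 5.54. These levels divide by the whole gene length, which for mt-Nd4 and mt-Co1 includes the bases in the duplicated block. Divided by the bases outside the block alone, a calculation added after the data were seen, mt-Nd4 stood at 298 ± 15.2 CPM per kb in the controls (SD, n = 2), above mt-Cytb, and at 244 ± 52.8 after knockdown (SD, n = 4), and mt-Co1 at 2283 and 2026, so the place of mt-Nd4 depends on the length used. Neighbours in the order by whole length were separated by more than their summed SDs, except mt-Cytb and mt-Nd5. After knockdown the level was 1393 ± 188 CPM per kb (SD, n = 4) for mt-Co1, 313 ± 61.7 for mt-Nd1, 259 ± 47.5 for mt-Cytb and 199 ± 35.0 for mt-Nd5. It was 157 ± 26.0 for mt-Nd6, 130 ± 24.2 for mt-Nd2 and 88.8 ± 19.3 for mt-Nd4, so the order by whole length was the same in both groups. In contrast, mt-Co2 and mt-Co3, which encode the other mitochondrial subunits of complex IV, stood at 0.130 and 0.326 CPM per kb in the controls, inside the duplicated block.

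No mitochondrial genome gene passed the test. With edgeR's quasi-likelihood test, 0 of the 20 tested genes were called at an adjusted p under 0.05, whereas 45.3% of all genes tested were called, 25.4% higher and 20.0% lower. Several of the 20 had few counts and wide 95% intervals, such as mt-Co2, with a mean of 4.83 counts and an interval of -0.52 to 2.56. At an unadjusted p under 0.05 there were 2, mt-Tc and mt-Nd6, and DESeq2's Wald test called 1, mt-Nd6. The share of all genes under that unadjusted threshold was not counted. CPM values of the groups did not overlap for 2 of the 20, mt-Tf and mt-Tc, which is 10.0% against 59.2% of all genes tested. The median log2 fold change was -0.11 over the 20 genes and 0.03 over all genes, with 11 of the 20 below 0. When libraries were scaled by total count alone, without TMM factors, the median of all genes moved to 0.17, the calls over all genes became 6106 higher and 2135 lower in place of 4625 and 3643, and the negative sign of mt-Nd1, mt-Nd2, mt-Tl1 and mt-Tp was lost. Lower calls over all genes were 2262 without Negative Control 1 and 1930 without Negative Control 2.

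**Figure D2:**
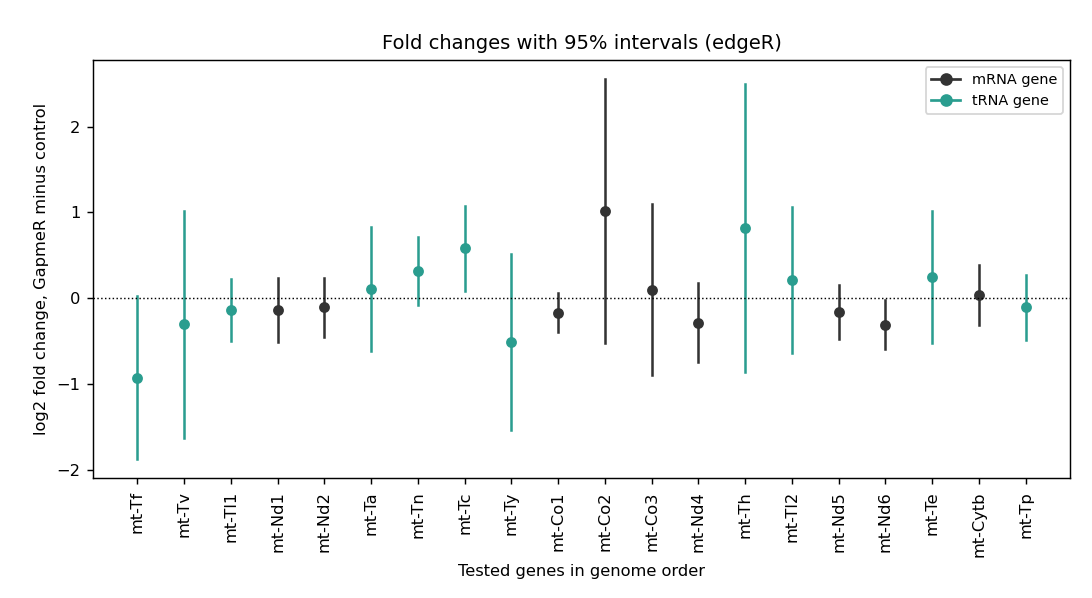
Log2 fold changes (GapmeR minus Negative Control, edgeR) of the 20 tested mitochondrial genome genes in genome order; points are estimates and bars 95% intervals, black for mRNA and green for tRNA genes. The intervals of mt-Tc and mt-Nd6 leave out 0, and the widest belong to genes with few counts such as mt-Co2 and mt-Th.

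The complex I genes (NADH dehydrogenase) made up 5 of the 7 well counted mRNAs, those with a mean of at least 100 counts. The mt-Nd1 gene (chrM:2751-3707) had 244, 355, 252 and 345 CPM in GapmeR 1 to 4 and 334 and 324 CPM in the controls. GapmeR 1 and 3 lay below both controls and GapmeR 2 and 4 above both. Its log2 fold change was -0.14 (SE 0.16, 95% interval -0.51 to 0.24, adjusted p = 0.529, edgeR). For mt-Nd2 (chrM:3914-4951) the values were 115, 157, 112 and 157 CPM against 149 and 142 CPM, with the same split of the GapmeR samples. The log2 fold change was -0.11 (SE 0.15, adjusted p = 0.600).

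The mt-Nd4 gene (chrM:10167-11544) had 106, 152, 94.8 and 137 CPM after knockdown and 144 and 155 CPM in the controls. Here 3 of the 4 GapmeR samples were below both controls and GapmeR 2 lay between them. Its log2 fold change of -0.29 (SE 0.19, adjusted p = 0.268) came with the widest interval of the 7 genes, -0.74 to 0.17. The mt-Nd5 gene (chrM:11742-13565) had 309, 410, 308 and 426 CPM against 426 and 389 CPM, so GapmeR 2 lay within the control range, GapmeR 4 was level with the higher control, just above it, and GapmeR 1 and 3 were below both. The gene had a log2 fold change of -0.17 (SE 0.14, adjusted p = 0.370).

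The remaining complex I gene, mt-Nd6 (chrM:13552-14070, minus strand), is the only protein gene on its strand. It had 68.0, 86.3, 73.0 and 97.9 CPM in GapmeR 1 to 4 and 97.4 and 104 CPM in the controls. GapmeR 4 fell just inside the control range, and the other three lay below it. The log2 fold change was -0.31 (SE 0.13, 95% interval -0.60 to -0.02), with an adjusted p of 0.0747 by edgeR. It passed the threshold with DESeq2's Wald test (adjusted p = 0.0282), without the filter on low counts (0.000407) and without GapmeR 4 (0.00377), and its adjusted p reached 0.373 when scaled by total count alone. Its end overlaps that of mt-Nd5 over chrM:13552-13565, and whether reads were counted by strand is not given in the sources used here.

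For complex IV, mt-Co1 (chrM:5328-6872) had 1965, 2172, 1915 and 2554 CPM after knockdown and 2545 and 2305 CPM in the controls. GapmeR 4 was the highest of all 6 samples and the other three were below both controls. The log2 fold change was -0.17 (SE 0.11, 95% interval -0.40 to 0.06, adjusted p = 0.206), and without GapmeR 4 it was -0.26 with an adjusted p of 0.0342 (edgeR). The complex III gene mt-Cytb (chrM:14145-15288), which encodes cytochrome b, had 245, 325, 256 and 358 CPM against 306 and 270 CPM. GapmeR 2 and 4 were above both controls and GapmeR 1 and 3 below both. Its log2 fold change was 0.04 (SE 0.15, adjusted p = 0.860), the only one of the 7 above 0 with TMM scaling, and its sign turned when GapmeR 2, GapmeR 4 or Negative Control 2 was left out.

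The 7 genes shared a pattern within the GapmeR group. In 7 of 7, GapmeR 2 and 4 were above GapmeR 1 and 3, and in 7 of 7 GapmeR 1 and 3 were below both controls. In 5 of 7 at least 1 GapmeR sample was above both controls. The coefficient of variation over the 4 GapmeR samples was 13.5% to 21.7% for these genes, with a median of 18.4%. Over the 4301 genes with a mean of at least 50 CPM the median was 6.09% and the upper quartile 8.45%. The 95% intervals of the 7 genes together ran from -0.74 to 0.39 in log2 fold change, or from 0.597-fold to 1.31-fold, and 6 of the 7 held 0. How many of all genes showed the same split of the samples was not counted. As precursors span many genes, the 7 mRNAs are not 7 independent observations. Outside the mitochondrial genome, the nuclear gene Lars2 had this split too, with 472, 927, 486 and 757 CPM against 513 and 656 CPM. It was named after its values were seen. Among the 23 tested genes that charge mitochondrial tRNAs, it had the highest mean CPM in both groups. Whether reads of mitochondrial sequence were counted on Lars2 was not tested.

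**Figure D3:**
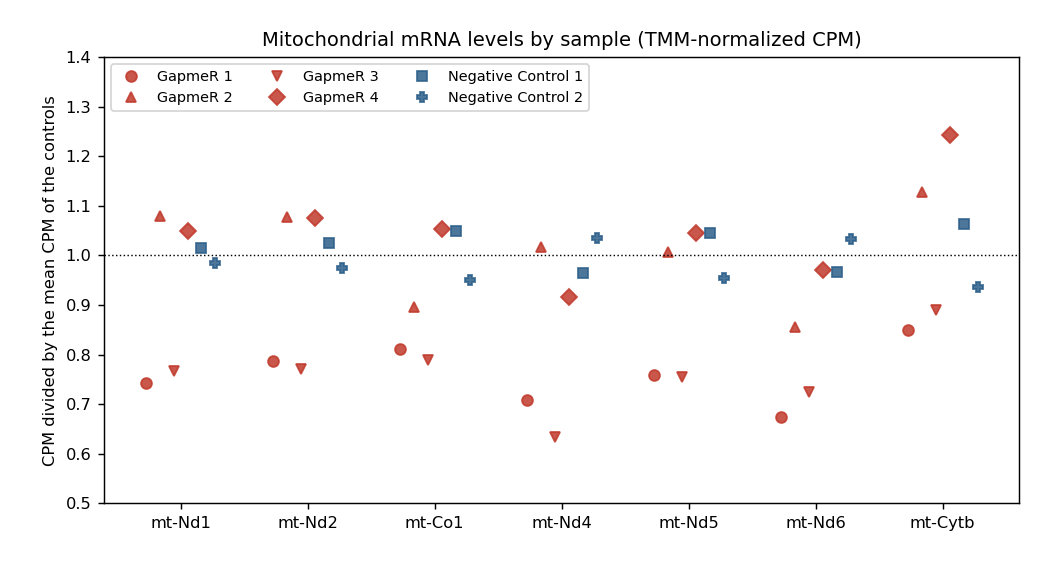
TMM-normalized CPM of the 7 well counted mitochondrial mRNA genes, divided by the mean of the 2 controls, with 1 symbol per sample. GapmeR 1 and 3 lie below both controls for 7 of 7 genes, while GapmeR 2 and 4 lie above GapmeR 1 and 3 for 7 of 7.

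The remaining mRNA genes are those inside the duplicated block. The mt-Co2 gene had 6, 8, 6 and 4 counts in GapmeR 1 to 4 and 4 and 1 counts in the controls, with a log2 fold change of 1.02 (SE 0.73, adjusted p = 0.271, edgeR). The mt-Co3 gene had 10, 10, 9 and 8 counts against 8 and 7 counts, with a log2 fold change of 0.10 (SE 0.47, adjusted p = 0.882). The mt-Atp6 and mt-Atp8 genes, which encode ATP synthase subunits, and the complex I genes mt-Nd3 and mt-Nd4l had 0 to 6 counts in each sample and were not tested. Changes in these 6 mRNAs were not detectable at these counts.

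Reads on mitochondrial mRNA genes made up 0.357% ± 0.0562 of all counts (SD, n = 4) after knockdown and 0.359% ± 0.0220 (SD, n = 2) in the controls. Of the 13 mRNA genes, the 6 inside the duplicated block had at most 10 counts in any sample. The share therefore lay almost wholly on the other 7. By sample the share was 0.313, 0.384, 0.309 and 0.424% in GapmeR 1 to 4 and 0.375 and 0.344% in the controls. The groups overlapped, with the lowest and the highest share both in GapmeR samples. With totals multiplied by the TMM factors the group means were 0.345% and 0.385%, and the groups still overlapped.

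Within the mitochondrial mRNA reads, nearly all on the 7 well counted genes, mt-Co1 held 62.5% ± 2.20 (SD, n = 4) after knockdown and 63.0% ± 0.772 (SD, n = 2) in the controls. The share of mt-Cytb was 8.01, 8.88, 8.51 and 8.78% in GapmeR 1 to 4 and 7.65 and 7.31% in the controls. All 4 GapmeR samples were above both controls, at 8.55% ± 0.388 against 7.48% ± 0.242. The share of mt-Nd6 was 2.23, 2.36, 2.42 and 2.40% against 2.43 and 2.83%, so the groups did not overlap but GapmeR 3 and Negative Control 1 were almost level. Set against the other 12 mRNA genes, mt-Nd6 came to 2.41% ± 0.0928 after knockdown and 2.70% ± 0.292 in the controls, and this gap rested on Negative Control 2, without which it shrank to -0.0851 percentage points, while without Negative Control 1 it was -0.498. The shares of mt-Nd1, mt-Nd2, mt-Co1, mt-Nd4 and mt-Nd5 overlapped between groups. These shares are descriptions. Exact permutation of 4 samples and 2 gives 15 splits, so its p-value cannot be under 0.0667.

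**Figure D4:**
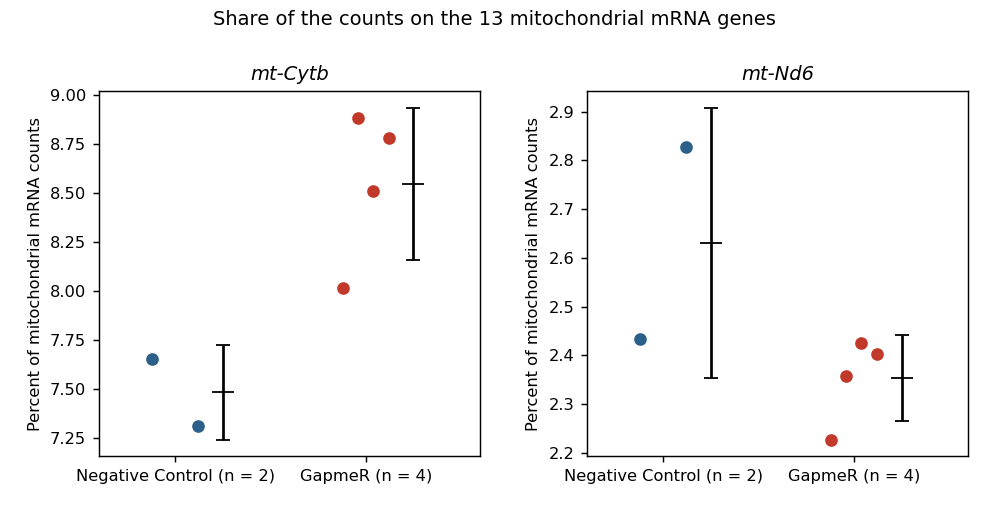
Percent of the counts on the 13 mitochondrial mRNA genes that fell on mt-Cytb (left) and mt-Nd6 (right), with 1 point per sample and the mean and SD beside each group. Of the 13 genes, 6 had at most 10 counts in any sample. The 4 GapmeR samples lie above both controls for mt-Cytb and below both for mt-Nd6, where the nearest samples of the groups stood at 2.42% and 2.43%; the axes do not start at 0.

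Reads on tRNA genes were sparse. The tRNA genes drew 0.00445% ± 0.000951 of all counts (SD, n = 4) after knockdown and 0.00392% ± 0.000101 (SD, n = 2) in the controls, with overlapping groups. Of the 22 tRNA genes, 7 had a mean of at least 20 counts, mt-Tp, mt-Tn, mt-Tl1, mt-Tc, mt-Ta, mt-Te and mt-Tl2, and 5 of these 7 are encoded on the minus strand, against 8 of all 22. In 11 tRNA genes the counts were too low to test. Of these, mt-Td, mt-Tk and mt-Tr had 0 counts in every sample, which allows up to 3 counts in each library, or 0.0770 to 0.109 CPM, for counting error only.

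The sequences of 5 tRNAs are printed because they mark the extremes of these counts. The most counted, mt-Tp, and the genes with the largest upward estimates among those with at least 100 counts, mt-Tn and mt-Tc, are set beside 2 of the genes at 0. Each reads 5′ to 3′ on its own strand in GRCm39, and capitals mark bases that differ from the nearest nuclear copy.
mt-Tp, proline, chrM:15356-15422, minus strand: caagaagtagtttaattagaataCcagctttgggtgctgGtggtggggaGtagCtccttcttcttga
mt-Tn, asparagine, chrM:5089-5159, minus strand: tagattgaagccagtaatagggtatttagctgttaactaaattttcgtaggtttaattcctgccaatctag
mt-Tc, cysteine, chrM:5192-5257, minus strand: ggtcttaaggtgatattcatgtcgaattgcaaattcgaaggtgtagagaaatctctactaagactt
mt-Td, aspartic acid, chrM:6942-7011, plus strand: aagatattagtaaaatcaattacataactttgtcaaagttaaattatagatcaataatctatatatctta
mt-Tk, lysine, chrM:7700-7764, plus strand: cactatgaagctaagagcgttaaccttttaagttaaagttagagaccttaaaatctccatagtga
The mt-Tp gene differs from its nearest copy, on chromosome 5, at 5 alignment positions, gaps included. The mt-Tn gene is identical to a copy on chromosome 2 and mt-Tc differs from one there by 1 gap, while mt-Td and mt-Tk are identical to the chromosome 1 copy. Complete identity over the tRNA gene itself was therefore found both in genes at 0 and in a gene with a mean of 298 counts. These genes are shorter than a read of 150 bases. All bases of mt-Td and mt-Tk (100%) lay in an exact nuclear match of at least 150 bases. For mt-Tc this was 78.8% and for mt-Tn and mt-Tp 0%. The part of such matches in the counts was not tested. Outside the chromosome 1 block, mt-Tw, mt-Ty, mt-Th and mt-Te are also identical to a nuclear copy. Of these, mt-Ty had 100% of its bases in an exact match of at least 150 bases, and the others had 0%.

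The cysteine tRNA gene mt-Tc had 89, 190, 107 and 106 counts in GapmeR 1 to 4 and 62 and 80 counts in the controls. This gave 2.63, 4.88, 3.45 and 3.28 CPM against 2.26 and 2.51 CPM, so all 4 GapmeR samples were above both controls, GapmeR 1 only slightly. This gene had a log2 fold change of 0.58 (SE 0.23, 95% interval 0.09 to 1.07, adjusted p = 0.0520, edgeR). The adjusted p was under 0.05 with DESeq2's size factors (0.0443), with scaling by total count alone (0.0215), under both other filters and without GapmeR 1 or GapmeR 3. Without GapmeR 2 the log2 fold change was 0.38 and the adjusted p 0.128, and without either control the adjusted p was 0.222 and 0.139.

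The asparagine tRNA gene mt-Tn, its neighbour on the same strand, had 8.44, 13, 8.06 and 8.79 CPM against 8.18 and 7.30 CPM. GapmeR 2 stood well above all the others, and GapmeR 3 lay within the control range. It had a log2 fold change of 0.32 (SE 0.18, adjusted p = 0.182), or 0.13 without GapmeR 2. The proline tRNA gene mt-Tp had 22.8, 28.1, 17.6 and 19.0 CPM against 23.9 and 23.4 CPM, a log2 fold change of -0.11 (SE 0.17, adjusted p = 0.639). GapmeR 2 was again the highest, and GapmeR 3 and 4, not GapmeR 1 and 3, were the lowest, unlike in the mRNA genes.

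The leucine tRNA gene mt-Tl1 had 3.48, 4.78, 3.67 and 3.81 CPM against 4.53 and 4.17 CPM, with GapmeR 2 above both controls and the other three below. That gave a log2 fold change of -0.14 (SE 0.17, adjusted p = 0.532). For the phenylalanine tRNA gene mt-Tf, 6, 12, 6 and 6 counts against 11 and 14 gave 0.177, 0.308, 0.193 and 0.186 CPM against 0.401 and 0.439 CPM. The groups did not overlap, and its log2 fold change of -0.93 (SE 0.45, adjusted p = 0.103) was the lowest of the tested genes. The others tested, mt-Ta, mt-Tv, mt-Ty, mt-Th, mt-Tl2 and mt-Te, had log2 fold changes from -0.51 to 0.82 and adjusted p-values of 0.411 to 0.827.

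Of 18 nuclear genes tested that transcribe or copy the mitochondrial genome, 9 were called higher, 0 lower and 9 in neither direction. That is 50% called, near the 45.3% of all genes, but all of them higher, where all genes had 25.4% higher and 20.0% lower, and the median log2 fold change was 0.44. Higher were Polrmt, the mitochondrial RNA polymerase, and Tfb2m, which melts the promoter for it. Also higher were Polg and Polg2, the catalytic and accessory subunits of the mitochondrial DNA polymerase, and Primpol, Mgme1, Mterf2, Mterf1b and Tfb1m.

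By far the largest change was that of Polg2, with 31.7, 31.7, 30.0 and 31.7 CPM in GapmeR 1 to 4 and 1.93 and 2.32 CPM in the controls. The groups were far apart and the GapmeR samples close together. Its log2 fold change was 3.87 (SE 0.12, adjusted p = 7.41e-13, edgeR). Polg2 exons overlap those of Milr1 on the opposite strand, and Milr1 had 17 to 28 counts after knockdown and 7 and 8 in the controls, far fewer than the 932 to 1235 and 53 and 74 counts of Polg2.

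Polrmt had 52.6, 52.4, 58.8 and 60.3 CPM after knockdown and 41.9 and 39.8 CPM in the controls, a log2 fold change of 0.46 (SE 0.08, adjusted p = 0.000274). Tfb2m had 13, 14.4, 13.2 and 13.7 CPM against 6.86 and 7.27 CPM, a log2 fold change of 0.94 (SE 0.11, adjusted p = 3.33e-06). In both genes every GapmeR sample was above both controls. Polg had a log2 fold change of 0.59 (SE 0.08), Mterf2, a factor of the mitochondrial terminator family, 0.84 (SE 0.16), and its relative Mterf1b 1.19 (SE 0.29). The log2 fold change was 0.87 (SE 0.22) for Tfb1m, which methylates mitochondrial ribosomal RNA, and its adjusted p rose from 0.00450 to 0.0536 without Negative Control 1.

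Tfam, which packages mitochondrial DNA and bends it at promoters, had 47.5, 46.8, 43.4 and 46.3 CPM after knockdown and 46.3 and 46.0 CPM in the controls. The groups overlapped, and the 95% interval of its log2 fold change was -0.16 to 0.15 (adjusted p = 0.978). Tefm, the elongation factor, had 9.23, 10.7, 9.06 and 10.4 CPM against 11.8 and 12.1 CPM. All 4 GapmeR samples were below both controls, with a log2 fold change of -0.28 (SE 0.11, adjusted p = 0.0524), which passed the threshold without GapmeR 2 (0.0242). The helicase gene Twnk (log2 fold change 0.06) and Ssbp1, the single-strand binding protein (0.03), were not called.

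**Figure D5:**
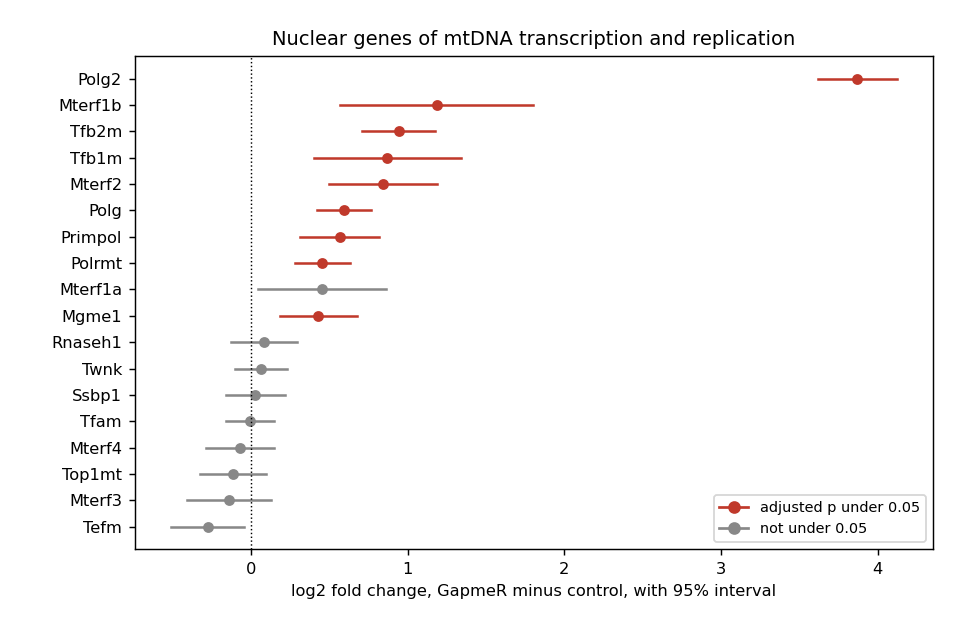
Log2 fold changes (GapmeR minus Negative Control, edgeR) with 95% intervals of the 18 nuclear genes of mitochondrial DNA transcription and replication. The 9 genes with an adjusted p under 0.05 are red and all above 0, and Polg2 at 3.87 lies far from the other 17.

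Genes for processing, modification and decay of mitochondrial RNA moved both ways. Of 37 tested, 11 were called higher and 11 lower, and the median of their log2 fold changes was 0.02. That is 29.7% in each direction, against 25.4% and 20.0% of all genes. Lower calls numbered 3 without Negative Control 1, 6 without Negative Control 2 and 4 when libraries were scaled by total count alone. The largest rise in the list was that of Trmu, which thiolates mitochondrial tRNAs, from 6.20 and 6.14 CPM in the controls to 17.2, 17.1, 17.4 and 18.1 CPM (95% interval of the log2 fold change 1.28 to 1.72, adjusted p = 7.94e-09, edgeR). Other modifying enzymes of tRNA rose too, Trit1 by a log2 fold change of 0.99 (SE 0.08) and Mto1 by 0.96 (SE 0.10). Nsun3, which methylates the methionine tRNA, fell by 0.80 on the log2 scale (SE 0.10), with 7.93 to 9.38 CPM after knockdown and 15.4 and 15.1 CPM in the controls.

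Supv3l1, the helicase of the mitochondrial RNA degradosome, had 54.7, 54.3, 54.0 and 61.2 CPM after knockdown and 27.1 and 26.5 CPM in the controls (log2 fold change 1.06, SE 0.08, adjusted p = 2.86e-08, edgeR). Its exons overlap those of 4930507D05Rik on the opposite strand, which went from 3 and 4 counts in the controls to 181, 242, 210 and 195 counts. Without the strand setting, reads of the pair cannot be told apart. Lrpprc and Slirp form a complex that stabilises mitochondrial mRNAs. Lrpprc had 65.9, 59.6, 58.7 and 63.3 CPM against 60.9 and 60.1 CPM, a log2 fold change of 0.03 (SE 0.07, adjusted p = 0.739). Slirp had 36.9, 47.0, 39.6 and 34.7 CPM against 31.9 and 34.4 CPM, all above both controls, with a log2 fold change of 0.25 (SE 0.11, adjusted p = 0.0672). Its exons overlap Alkbh1, which was higher after knockdown by a log2 fold change of 1.47, and Snw1, which was lower by one of -0.44.

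Enzymes that charge mitochondrial tRNAs had 7 of 23 tested called higher and 3 lower, the latter 1 without either control, and the median of the log2 fold changes was 0.10. In all 43.5% were called, near the 45.3% of all genes. The largest change was in Cars2, the cysteinyl-tRNA synthetase that charges the product of mt-Tc. Cars2 rose from 3.94 and 3.04 CPM in the controls to 7.79, 8.50, 8.15 and 9.32 CPM (log2 fold change 1.28, SE 0.15, adjusted p = 4.17e-06, edgeR). Gatb, a subunit of the amidotransferase that makes glutaminyl-tRNA, rose by a log2 fold change of 0.92 (SE 0.14) and the threonine and valine enzymes Tars2 and Vars2 by 0.91 (SE 0.08) and 0.75 (SE 0.09). Exons of Cars2 overlap those of Naxd on the opposite strand, which was also called higher (log2 fold change 0.38).

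The mitochondrial ribosome translates these mRNAs. Its protein genes were taken by name, as those starting with Mrpl or Mrps and a digit. Of 80 such genes tested, 8 were called higher and 19 lower, and the median log2 fold change was -0.09. The 80 include the pseudogenes Mrpl23-ps1 and Mrpl48-ps, neither of them called. The lower share of 23.8% was near the 20.0% of all genes, and the higher share of 10.0% was under their 25.4%. Examples are Mrpl17, which fell by 0.52 on the log2 scale (SE 0.08) from 170 and 139 CPM in the controls to 106, 103, 109 and 113 CPM, and Mrpl12, which fell by 0.45 (SE 0.08). Mrpl55 and Mrpl16 fell by 0.49 and 0.48. Exons of Mrpl16 overlap those of Stx3 on the opposite strand, which was also called lower (log2 fold change -0.33). In contrast, Mrps27 rose by a log2 fold change of 0.57 (SE 0.09), with 51.7 to 59.9 CPM against 40.9 and 33.8 CPM. With scaling by total count alone 18 were called higher and 8 lower. Lower calls numbered 29 without GapmeR 2, 8 without Negative Control 1 and 11 without Negative Control 2, which left 4 higher calls.

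Among 16 regulators of mitochondrial biogenesis, 2 were called higher and 3 lower, and the median log2 fold change was -0.11. The 31.2% called compare with 45.3% of all genes. Higher calls numbered 4 when scaled by total count alone, and lower calls 5 without GapmeR 2. Sirt3, the mitochondrial deacetylase, rose from 10.4 and 9.96 CPM to 15.5, 16.6, 16.3 and 14.5 CPM (log2 fold change 0.63, SE 0.10, adjusted p = 0.000113, edgeR). Its exons overlap 2 genes on the opposite strand, Psmd13 (log2 fold change 0.04) and Ric8a (-0.48). Psmd13 had 5568 to 6650 counts after knockdown and 5097 and 5393 in the controls, against 468 to 647 and 286 and 318 for Sirt3. Gabpb1, a subunit of nuclear respiratory factor 2, rose by a log2 fold change of 0.40 (SE 0.08). Myc fell by 0.43 (SE 0.08) on the log2 scale, Prkaa1, a catalytic subunit of AMP-activated kinase, by 0.42 (SE 0.08), and Yy1 by 0.28 (SE 0.07). The call of Yy1 was lost when scaled by total count alone (adjusted p = 0.153) and without Negative Control 2 (0.114).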

How the data were processed

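Total RNA of 6 bEND.3 samples was sequenced after ribosomal RNA depletion. The authors trimmed the reads, aligned them to mm10 with STAR within the bcbio-nextgen pipeline and deposited whole-number read counts per Ensembl gene, without normalization. The submitters' processing notes name Trimmomatic 0.36, STAR 2.5.2b and Subread 1.5.2. Settings for strand and for multiply placed reads are not given in the sources used here. Exons of other nuclear genes named here also overlap genes on the opposite strand, among them Tfb2m, Mterf2, Trmu and Mrps27. The study's design gives 4 samples for each group, and 2 Negative Control samples were labelled here. In the table, 1 further column of per-sample counts, named like the control columns but matching no labelled sample, was not used. Nothing in the labels says that samples came from separate cultures, so p-values measure only the spread between these samples.

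Groups came from the sample titles. Genes reaching 5 counts in 2 or more samples were tested with edgeR 4.0.16 (TMM, robust quasi-likelihood fit, Benjamini-Hochberg adjustment over all genes tested) in R 4.3.3. TMM factors ranged from 1.02 to 1.05 after knockdown and were 0.936 and 0.932 in controls. CPM used TMM library sizes, and every SD is over samples. The functions were tested on simulated data. Alternatives were DESeq2 1.42.0, its size factors, scaling by total count alone, leaving the mitochondrial genes out of the scaling, 2 other filters, a replicate block and each sample left out in turn.

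Coordinates of mitochondrial genes come from GENCODE on GRCm39, and all 37 have the same span in RefSeq's GRCm38 annotation. Nuclear copies were searched on GRCm39 by blastn 2.17.0, keeping hits with an e-value under 1e-10. All mitochondrial mRNA genes were named, and from each nuclear list up to 5 called genes with the largest change and a mean of at least 1 CPM, besides Polrmt, Tfam, Tfb2m, Tefm, Lrpprc and Slirp. One gene that this rule names is not reported here. The tRNA genes and cell type markers described, and Polg, Primpol, Mgme1, Twnk, Ssbp1, Lars2, Mrpl23-ps1 and Mrpl48-ps, were named after their values were seen. The genes and lists were chosen with earlier results of these data known.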

Additional observations from a re-analysis of the deposited data

Results flagged for a closer look

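Of 60 quantities examined in the 4 GapmeR samples, 5 had a lowest or highest sample whose gap to its neighbour exceeded Dixon's 95% critical value for the share of the range, and chance alone gives this in about 1 of 20 groups. In 3 of them GapmeR 2 was the highest sample: mt-Tn at 13 CPM, mt-Tf at 0.308 CPM and the share of all counts on mitochondrial tRNA genes at 0.00586%. GapmeR 3 was the lowest for Polg2 at 30.0 CPM, and GapmeR 4 the highest for Supv3l1 at 61.2 CPM.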

How the results depend on the processing

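The 20 tested mitochondrial genes gave 251 values under the alternatives, of which 221 kept their direction and side of the threshold, 17 changed sign and 13 passed the threshold only there. Leaving the mitochondrial genes out of the scaling changed no call. The denominator without ribosomal RNA genes could not be run, since those 2 genes were not analysed here. Where no value of its own shows it, the cause of a change was not tested.

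With scaling by total count alone, the log2 fold change was 0.011 for mt-Tl1, 0.014 for mt-Nd1, 0.043 for mt-Nd2, 0.042 for mt-Tp and 0.15 for Tfam. Lower calls were then 2135 over all genes, 4 in RNA processing and 1 in tRNA charging, biogenesis regulators had 4 higher, and mitochondrial ribosomal proteins had 18 higher and 8 lower. Tfam also changed sign with DESeq2's size factors and Wald test (0.0013 in both) and with at least 10 counts in every sample (0.044). One mitochondrial gene, mt-Tc, was called higher with DESeq2's size factors, total count alone, no filter or the stricter filter, and 1, mt-Nd6, lower with DESeq2's Wald test or no filter. Per kilobase, the gap of mt-Nd6 to the other mRNA genes was -0.824 percentage points.

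Same-numbered samples are not known to share a culture, and the correlations of their deviations were -0.114 and 0.180 over 8870 genes. A replicate block on the 4 samples with shared numbers called 2 mitochondrial genes higher, mt-Tn (adjusted p = 0.00266) and mt-Tc (0.00519), and 1 lower, mt-Nd6 (0.000350), and 7 RNA processing genes lower. In that block the log2 fold change was -0.050 for mt-Tl2, -0.10 for mt-Te, -0.0057 for mt-Cytb, 0.13 for mt-Tp and 0.054 for Tfam.

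Leaving out each sample in turn, 0 to 1 mitochondrial genes were called higher and 0 to 2 lower, the 2 being mt-Co1 and mt-Nd6 without GapmeR 4. The log2 fold change ranged from -0.22 to 0.28 for mt-Ta, -0.99 to 0.36 for mt-Ty, -0.080 to 0.32 for mt-Co3, -0.066 to 0.43 for mt-Tl2, -0.062 to 0.15 for mt-Cytb, -0.25 to 0.0047 for mt-Tp and -0.017 to 0.044 for Tfam. Lower calls ranged from 1930 to 3948 over all genes, 0 to 1 in mitochondrial DNA transcription, 3 to 11 in RNA processing, 1 to 4 in charging, 2 to 5 in biogenesis and 8 to 29 in ribosomal proteins, with 4 to 11 higher in the last. Over all genes the lowest count came without Negative Control 2, in RNA processing without Negative Control 1 and in charging without either. The mt-Nd6 gap ranged from -0.498 to -0.0851 percentage points. With 10 or fewer counts, 2 of the 11 genes inside the chromosome 1 copy, mt-Co2 and mt-Co3, were tested, with wide intervals. The others were not tested.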
